A study of Mus musculus with 7 samples.

Results

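The genes described here are 9 markers of the B lymphocyte: the signalling chains of the B cell receptor (Cd79a and Cd79b), the kinase Blk and the adaptor Blnk that act behind it, and 5 surface proteins of maturing B cells (Ms4a1, Fcer2a, Cr2, Cd37 and Tnfrsf13c). They were taken by name from the 35498 genes to which the deposited transcripts could be joined, with earlier results of these data known. All 9 had enough reads to be tested. Whole bone marrow RNA of female mice, 5 to 6 months old, was sequenced: 3 libraries were Aim2 knock outs (KO, described as AIM2 null) and 4 were WT. Aim2 encodes a cytosolic DNA sensor, and the series title speaks of fat cell formation in marrow. The labels do not state the deleted part of Aim2, the strain, or whether each library came from a mouse of its own, so the p-values cover only how far these libraries differ among themselves.

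The B cell receptor is a membrane immunoglobulin held together with a heterodimer of CD79A and CD79B. Each of those chains carries an immunoreceptor tyrosine-based activation motif (ITAM), which SRC-family kinases such as BLK and LYN phosphorylate and on which the kinase SYK then docks. SYK phosphorylates the adaptor BLNK, which gathers BTK and PLCG2 and so starts calcium signalling. In marrow, CD79A and CD79B appear at the pro-B stage, whereas CD23 (Fcer2a), CD21 (Cr2) and the BAFF receptor (Tnfrsf13c) appear on B cells that are leaving the immature stage or that have returned to marrow from the blood.

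The coding stretches of both ITAMs are shown because these chains give the complex its name. They were read from the GENCODE M21 transcripts that held all reads of Cd79a and most reads of Cd79b. Capitals mark the 4 codons of the motif, for tyrosine, leucine, tyrosine and isoleucine.
Cd79a-201, plus strand, chr7:24901296-24901469 with introns left out: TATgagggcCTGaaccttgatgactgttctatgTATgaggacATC
Cd79b-202, minus strand, chr11:106311867-106312012 with introns left out: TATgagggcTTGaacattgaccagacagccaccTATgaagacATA
Both stretches are 45 bases long and 31 of these bases are identical.

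Promoter windows were matched by symbol for 6 of the 9 genes from RefSeq on GRCm38.p6, each with 250 bases before and 50 after the RefSeq start. That start can differ from the GENCODE M21 start of the transcript measured. Blnk-201, which held nearly all of the TPM of Blnk, starts at 40994535. The whole Blnk window, with all its matches, lies downstream of that position. Cd79a-201 starts at 24897381, inside the Cd79a window and before its ETS match. The windows of 5 genes are shown, namely Cd79a, which is the common measure used further on, Fcer2a and Cr2, which differed most between the groups, and Blnk and Cd37, which differed least. Capitals mark matches on either strand to 6 motifs: the octamer ATGCAAAT, a palindrome bound by EBF, the E-box CAGGTG, an ETS core with the letters GGAAGT, the TATA box TATAAA, and a pattern close to the interferon-stimulated response element (ISRE).
Cd79a, plus strand, chr7:24897247-24897546: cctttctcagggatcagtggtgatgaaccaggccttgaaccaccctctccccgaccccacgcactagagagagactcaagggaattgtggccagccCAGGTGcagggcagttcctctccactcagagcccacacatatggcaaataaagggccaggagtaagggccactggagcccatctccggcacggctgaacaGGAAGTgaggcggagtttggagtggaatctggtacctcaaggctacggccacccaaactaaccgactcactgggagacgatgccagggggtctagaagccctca
Fcer2a, minus strand, chr8:3694125-3694424: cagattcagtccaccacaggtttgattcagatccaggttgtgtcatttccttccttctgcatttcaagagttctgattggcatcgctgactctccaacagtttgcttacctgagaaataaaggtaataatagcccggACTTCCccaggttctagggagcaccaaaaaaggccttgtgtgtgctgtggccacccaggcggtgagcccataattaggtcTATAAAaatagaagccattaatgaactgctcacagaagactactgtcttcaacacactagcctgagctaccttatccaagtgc
Cr2, minus strand, chr1:195176670-195176969: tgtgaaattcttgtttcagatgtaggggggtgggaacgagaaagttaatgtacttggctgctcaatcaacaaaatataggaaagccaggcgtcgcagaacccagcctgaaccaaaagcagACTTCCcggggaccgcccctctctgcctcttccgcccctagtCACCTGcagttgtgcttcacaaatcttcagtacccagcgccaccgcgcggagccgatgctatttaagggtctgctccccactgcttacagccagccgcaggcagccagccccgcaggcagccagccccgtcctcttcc
Blnk, minus strand, chr19:40994172-40994471: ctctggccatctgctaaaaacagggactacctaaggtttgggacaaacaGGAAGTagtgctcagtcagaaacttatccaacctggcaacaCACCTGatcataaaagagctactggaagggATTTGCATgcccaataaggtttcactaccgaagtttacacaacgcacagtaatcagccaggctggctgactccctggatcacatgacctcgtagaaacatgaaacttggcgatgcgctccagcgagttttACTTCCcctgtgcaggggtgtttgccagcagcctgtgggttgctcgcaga
Cd37, minus strand, chr7:45238790-45239089: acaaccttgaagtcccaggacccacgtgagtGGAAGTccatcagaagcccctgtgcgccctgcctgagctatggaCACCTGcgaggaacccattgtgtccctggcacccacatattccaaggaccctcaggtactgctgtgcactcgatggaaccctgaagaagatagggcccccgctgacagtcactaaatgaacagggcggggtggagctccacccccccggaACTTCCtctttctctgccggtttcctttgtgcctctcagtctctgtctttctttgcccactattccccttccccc
A match is a run of letters and no more. The ETS core was found in all 5 windows shown, against 23.8% of all 32851 promoter windows of this length, and the E-box in 4 of them, against 20.2%. Fcer2a has 3 windows in the table, of which the first is shown; the second holds the E-box at 2 places, and neither the second nor the third holds the ETS core. The window of Tnfrsf13c, which is not shown, held the E-box and no ETS core. Over the 8 windows of the 6 genes, the ETS core was in 5 and the E-box in 6. Of these windows the octamer was found in Blnk alone (1.74% of all windows) and TATAAA in the first Fcer2a window alone (13.6%). Neither the full EBF palindrome (0.904%) nor the ISRE-like pattern (3.44%) was found in any of the 8 windows of the 6 genes. Only matches to all fixed letters of a motif were searched for, so a site that departs from them is left unmarked. The lack of a palindrome match therefore does not show that a window, such as that of Cd79a, has no EBF site.

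Libraries held 20777315 to 21027429 estimated reads in KO and 20300468 to 21099972 in WT. Reads of Aim2 numbered 157, 47 and 59 in the KO libraries and 533 to 601 in the WT libraries, so KO library 1 had the most of its group (log2 fold change -2.76 with an SE of 0.38, adjusted p = 0.028, edgeR's quasi-likelihood test). Leaving out any 1 library except KO library 1 ended that call (adjusted p = 0.0538 to 0.097), and without KO library 1 the log2 fold change was -3.49. Per length the difference was smaller, with 10.4, 5.73 and 7.61 TPM in KO and 16.2, 18.2, 19.0 and 16.2 TPM in WT, and a log2 fold change of -1.28 with a transcript length offset and -1.17 with limma on log2(TPM + 0.1) (adjusted p = 0.029 and 0.054). Haemoglobin genes held 11.3 to 13.7% of reads in KO and 13.8 to 19.9% in WT, and immunoglobulin genes 1.11 to 1.72% in KO and 0.314 to 0.903% in WT.

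All 9 B cell genes had a lower mean in KO marrow than in WT marrow, and the difference was graded. Fcer2a and Cr2 stood at 33.8% and 33.3% of their WT means on the CPM scale (reads scaled to a common library size with TMM factors). Cd79a, Cd79b, Ms4a1, Blk and Tnfrsf13c stood at 47.0 to 52.9%. Blnk stood at 71.5% and Cd37 at 83.2%. None of the 9 passed the threshold of 0.05 after adjustment over all 14238 tested genes, so none is counted as changed. In bulk marrow, fewer B cells and less of an RNA in each B cell cannot be told apart.

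By edgeR's quasi-likelihood test, 0 of 9 genes passed an adjusted p of 0.05, against 0.169% of all tested genes that passed in the lower direction. None passed in the higher direction, against 0.478% of all tested genes. At an adjusted p of 0.1 there were 5, against 0.442%. At an unadjusted p of 0.05 there were 9 of 9, against 5.01% of all genes. DESeq2 called 7, against 1.03%, and limma voom with sample weights 6, against 0.857%. All 9 log2 fold changes were under 0, as were 52.7% of all tested genes, and the median was -0.98, against -0.01 over all of them. Every KO library lay under every WT library for 7 of the 9 genes, against 5.94% of all tested genes, and the exceptions were Ms4a1 and Blnk. The reverse held for 0 of the 9, against 6.95%. The 9 genes were chosen with earlier results of these data known, so these shares describe the set and test nothing about it.

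**Figure D1:**
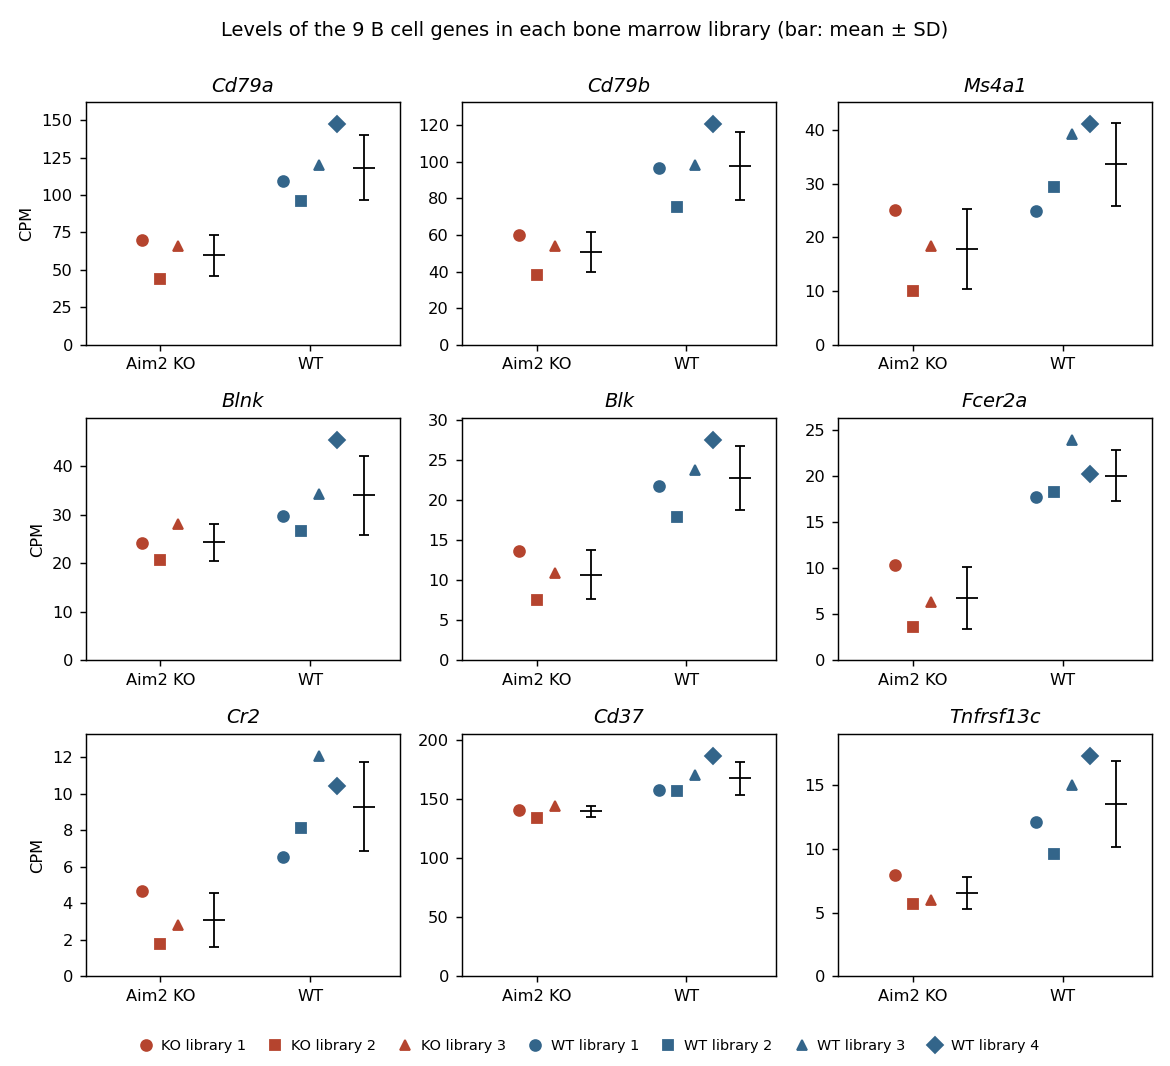
CPM of each gene (vertical axis, from 0) in the 3 KO and 4 WT libraries, with marker shape for the library number and a bar for mean ± SD. KO library 2 is the lowest point of its group in all 9 panels, and KO and WT points overlap for Ms4a1 and Blnk.

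Cd79a and Cd79b, the paired signalling chains, were lower in KO to nearly the same extent. Cd79a (chromosome 7, 24897381 to 24902197) was at 69.7, 43.8 and 65.7 CPM in KO libraries 1 to 3 and at 109, 96.0, 120.2 and 147 CPM in WT libraries 1 to 4. The groups did not overlap, and KO library 2 was the lowest of all. The log2 fold change was -0.98 ± 0.19 (SE; adjusted p = 0.083). Cd79b (chromosome 11, 106311341 to 106314762) was at 59.8, 38.2 and 53.9 CPM in KO and at 96.5, 75.1, 98.5 and 121 CPM in WT. It again had KO library 2 lowest and WT library 4 highest, with no overlap (log2 fold change -0.95 with an SE of 0.19, adjusted p = 0.087).

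Behind the receptor, the kinase and the adaptor stood apart. Blk, a SRC-family kinase found mainly in B cells (chromosome 14, 63372836 to 63417037), was at 13.7, 7.54 and 10.9 CPM in KO and at 21.8, 18.0, 23.8 and 27.5 CPM in WT. All KO values lay under all WT values (log2 fold change -1.09 with an SE of 0.21, adjusted p = 0.084). Blnk, the adaptor that links SYK to PLCG2 and that macrophages use as well (chromosome 19, 40928927 to 40994535), was at 24.3, 20.6 and 28.1 CPM in KO and at 29.9, 26.7, 34.3 and 45.4 CPM in WT. KO library 3 exceeded WT library 2, so the groups overlapped. The difference was -0.48 ± 0.19 (log2 scale, SE; adjusted p = 0.385).

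Among the surface proteins, the low-affinity IgE receptor and the complement receptor had the largest fold differences of the 9 genes. Fcer2a, which encodes CD23 (chromosome 8, 3681737 to 3694175), was at 10.3, 3.65 and 6.38 CPM in KO and at 17.7, 18.3, 23.9 and 20.2 CPM in WT. The groups did not overlap, KO library 2 was the lowest and the WT libraries lay close to each other. The log2 fold change was -1.56 ± 0.30 (SE; adjusted p = 0.081). Cr2, which encodes CD21 and CD35 in the mouse (chromosome 1, 195136811 to 195176716), was the gene with the fewest reads, 100, 37 and 62 in KO and 122, 168, 249 and 218 in WT. In CPM these were 4.69, 1.78 and 2.81 in KO and 6.54, 8.14, 12.1 and 10.4 in WT, with no overlap (log2 fold change -1.59 with an SE of 0.34, adjusted p = 0.103). Cr2 lies 21.7 Mb from Aim2 on the same chromosome, and any part of that position in the difference was not tested.

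Tnfrsf13c, the BAFF receptor through which maturing B cells survive (chromosome 15, 82221743 to 82224369), was at 7.93, 5.67 and 5.97 CPM in KO and at 12.1, 9.60, 15.0 and 17.3 CPM in WT. The groups did not overlap (log2 fold change -1.05 with an SE of 0.22, adjusted p = 0.096). Ms4a1, which encodes CD20 (chromosome 19, 11249675 to 11266241), was at 25.1, 10.1 and 18.3 CPM in KO and at 24.9, 29.5, 39.3 and 41.1 CPM in WT. KO library 1 exceeded WT library 1, the lowest of its group, so the groups overlapped (log2 fold change -0.92 with an SE of 0.30, adjusted p = 0.295). Cd37, a tetraspanin of B cells that other leukocytes express too (chromosome 7, 45233632 to 45239115), was at 140.3, 134 and 144 CPM in KO and at 158, 157, 170.4 and 186 CPM in WT. Its groups did not overlap although the difference was the smallest of the 9 (log2 fold change -0.27 with an SE of 0.08, adjusted p = 0.248).

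**Figure D2:**
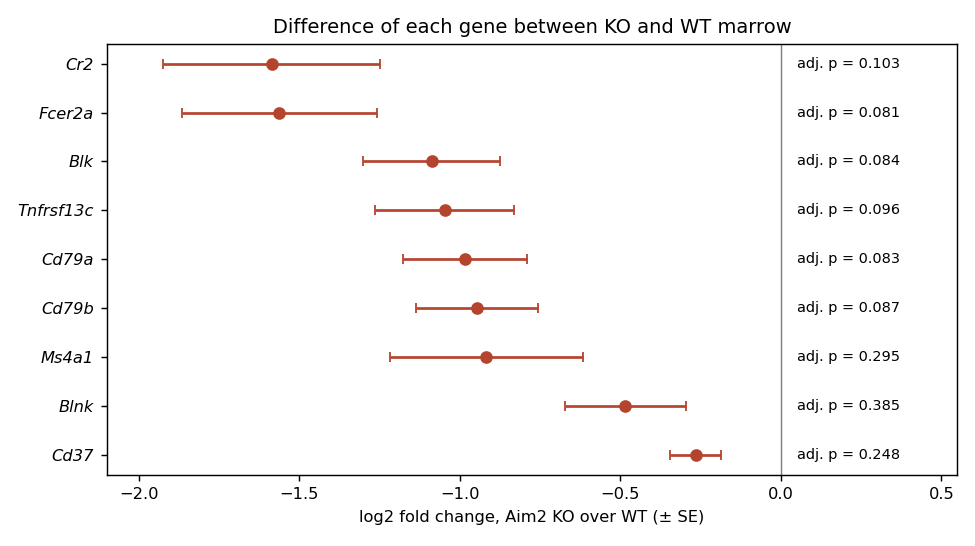
Log2 fold change of KO over WT (horizontal axis) with its SE for each gene, sorted from the lowest value, Cr2 at -1.59, to Cd37 at -0.27, with the adjusted p of edgeR's quasi-likelihood test at the right. All 9 lie left of 0 and no adjusted p is under 0.05.

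The libraries kept much the same order from gene to gene. KO library 2 was the lowest KO library for 9 of 9 genes, and KO library 1 was the highest for 7, with KO library 3 highest for Blnk and Cd37. In WT, library 4 was the highest for 7 genes and library 3 for Fcer2a and Cr2. The spread within KO was widest for Fcer2a, Cr2 and Ms4a1, with coefficients of variation of 49.5%, 47.8% and 42.1% in KO against 13.8%, 26.3% and 23.1% in WT. It was narrowest for Cd37, at 3.55% in KO and 8.31% in WT. When KO library 1 was left out, Fcer2a passed (adjusted p = 0.031), 1 of 9 genes against 0.0624% of all genes in that fit, while with any other library left out its adjusted p was 0.132 to 0.186.

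Compared per length, the genes differed widely in level. TPM, a share of the library's transcripts corrected for their length, was highest for Cd37, at 109 ± 11.8 in KO (SD, n = 3) and 113 ± 19.9 in WT (SD, n = 4). Cd79b followed at 48.9 ± 13.4 TPM in KO and 85.5 ± 17.7 TPM in WT, then Cd79a at 46.1 ± 12.8 TPM in KO and 82.8 ± 18.3 TPM in WT. The ranges of Cd79a and Cd79b overlapped in both groups, and those of Cd37 and Cd79b overlapped in WT but not in KO. Blnk was at 12.5 ± 2.49 TPM in KO and 15.9 ± 4.38 TPM in WT. Ms4a1, Blk, Tnfrsf13c and Fcer2a lay between 3.48 and 6.69 TPM in KO and between 9.20 and 11.3 TPM in WT, where ranges of neighbours within a group overlapped. Cr2 was lowest, at 1.01 ± 0.54 TPM in KO and 2.60 ± 0.92 TPM in WT.

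On the TPM scale the separation was weaker. Every KO library lay under every WT library for Cd79a, Cd79b, Blk and Fcer2a, 4 of 9 genes against 1.39% of all tested genes, and the other 5 overlapped. With limma on log2(TPM + 0.1), where the median of all genes stood at 0.13, the log2 fold change of Cd37 was -0.05 ± 0.15 (SE; adjusted p = 0.911). For Cd37 the KO libraries had 111, 96.1 and 119.5 TPM and the WT libraries 85.6, 112, 125 and 129.9 TPM, so WT library 1 was the lowest of all. WT library 1 also had the highest share of haemoglobin reads (19.9%), whose part in these TPM values was not tested.

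Each gene was set against Cd79a within its own library, a ratio that does not depend on how libraries are scaled. Cd79b, Ms4a1 and Tnfrsf13c had nearly the same ratio to Cd79a in both groups, with differences of 0.04, 0.01 and -0.03 on the log2 scale. Fcer2a and Cr2 were lower relative to Cd79a in KO by value, and Blnk and Cd37 were higher. The log2 ratio of Cd37 to Cd79a was 1.01, 1.61 and 1.13 in KO and 0.53, 0.71, 0.50 and 0.34 in WT. That of Blnk was -1.52, -1.09 and -1.22 in KO and -1.87, -1.85, -1.81 and -1.70 in WT. Neither pair of groups overlapped, with differences of 0.73 and 0.53.

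For Fcer2a the log2 ratio to Cd79a was -2.75, -3.58 and -3.36 in KO and -2.62, -2.39, -2.33 and -2.86 in WT. KO library 1 fell within the WT range, while KO libraries 2 and 3 lay under it (difference -0.68). For Cr2 the ratio was -3.89, -4.62 and -4.55 in KO and -4.06, -3.56, -3.32 and -3.82 in WT, with KO library 1 again inside the WT range (difference -0.67). Blk differed by -0.12. The exact two-sided permutation p was 0.0571 for Cd37 and Blnk, 0.114 for Fcer2a and Cr2, and 0.171 to 0.914 for the other 4, and after adjustment over the 8 ratios the lowest was 0.229. With 3 against 4 libraries 0.0571 is the smallest p this test can give, so no ratio could pass, and the differences are given as values.

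**Figure D3:**
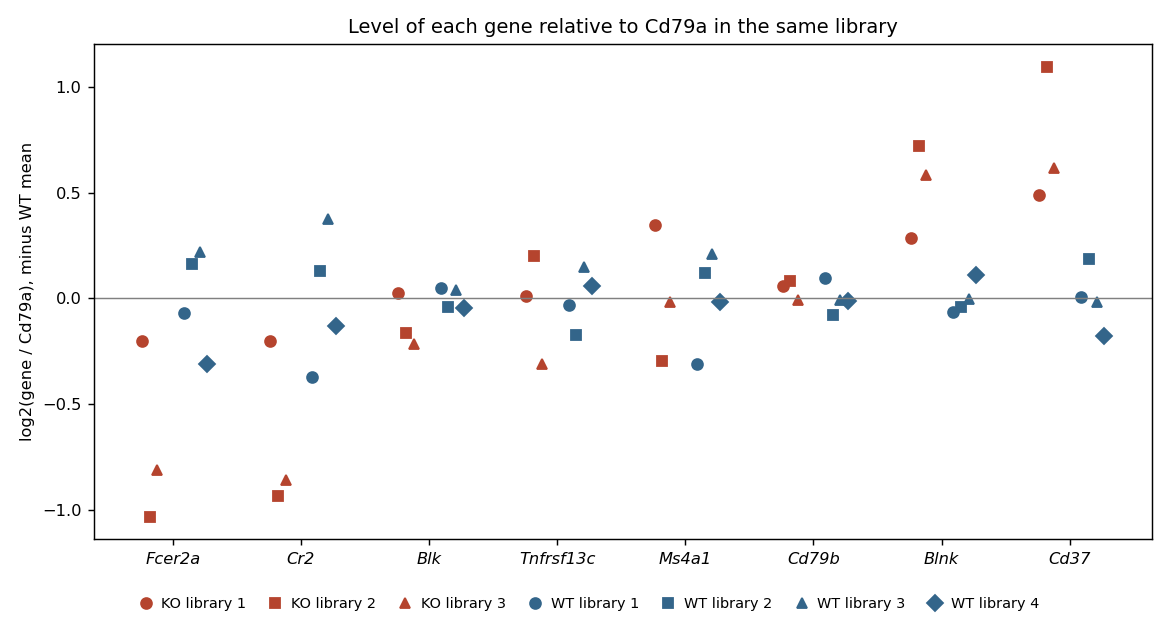
Log2 ratio of each gene to Cd79a in the same library, minus the WT mean of that ratio (vertical axis), for 3 KO and 4 WT libraries. The KO points of Blnk and Cd37 lie above all WT points, and KO libraries 2 and 3 lie under all WT points for Fcer2a and Cr2.

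The transcripts that carried these reads were mostly the same in both groups. Cd79a has a single listed transcript. Of the TPM of Cd79b, the transcript Cd79b-202 held 82.25 to 89.9% in KO and 89.4 to 94.5% in WT, lowest in KO library 2. Blnk-201 held 99.78 to 99.93% of the TPM of Blnk in KO and 99.71 to 99.94% in WT. Ms4a1-201 held 90.8 ± 1.47% of Ms4a1 in KO and 89.2 ± 2.65% in WT, with the remainder on 2 transcripts that retain an intron. Fcer2a-201, which starts inside the promoter window shown, held 87.0 ± 10.6% in KO and 89.5 ± 4.66% in WT. Its lowest share, 75.0%, was in KO library 2, where that transcript had only 67.4 reads. Blk-201 held 77.5 ± 3.68% of Blk in KO and 77.3 ± 3.26% in WT, and the rest lay on Blk-202, which retains an intron. Tnfrsf13c-201 held 63.1 ± 13.8% of Tnfrsf13c in KO and 68.7 ± 11.3% in WT.

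Cd37 and Cr2 were spread over more transcripts. For Cd37 the transcript Cd37-202 held 58.8 ± 3.93% in KO and 54.5 ± 5.23% in WT, and Cd37-204, which is longer, 20.2 ± 1.98% in KO and 24.6 ± 3.42% in WT. The Cr2-202 transcript had 59.9, 0 and 57.2 reads in KO and 92.5, 131, 203 and 179 in WT. A counted 0 allows up to 3 reads, but this 0 is an estimate that depends on the split between transcripts. In KO library 2, 29.2 reads went to Cr2-208 instead, a transcript of 6212 bases against 6207 for Cr2-202, and the split between such near-equal transcripts is uncertain. KO library 1 had 16.9 reads on Cr2-208 and 5.28 on Cr2-201. KO library 3 and the WT libraries had 0 on both. A short Cr2 transcript with a retained intron, Cr2-203, took 36.3 ± 13.2% of the Cr2 TPM in KO and 33.3 ± 10.1% in WT from at most 21.4 reads in a library. These transcript shares were not tested.

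Other genes of the pathway were taken in lists that leave out the 9 genes. Of 40 tested genes of B cell receptor signalling, 1 fell, 0 rose and 39 did not pass, with a median log2 fold change of -0.01, the same as over all tested genes. The 1 that fell was Siglecg, an inhibitory lectin of B cells, at 31.6 ± 2.12 CPM in KO (SD, n = 3) and 51.1 ± 6.44 CPM in WT (SD, n = 4; log2 fold change -0.70 with an SE of 0.11, adjusted p = 0.038, edgeR). At an unadjusted p of 0.05, 6 genes of this list were lower and 2 higher, against 5.01% and 6.45% of all tested genes. Fcgr2b, the inhibitory IgG receptor, which lies 2.37 Mb from Aim2, differed by -0.57 on the log2 scale (adjusted p = 0.098). The membrane adaptor Pag1 differed by 0.33 (adjusted p = 0.172).

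Signalling enzymes that myeloid cells use as well lay nearer to 0. The log2 fold change was -0.18 for Syk, 0.04 for Btk, 0.12 for Lyn, all kinases, and 0.24 for the phospholipase Plcg2, and none of them passed (adjusted p = 0.545 to 0.911). These 4 genes were picked with their values in view. Cd22, Cd72 and Bank1 of the same list, picked in the same way, had log2 fold changes of -0.78, -0.75 and -0.56 (adjusted p = 0.321, 0.293 and 0.398). The call of Siglecg was lost in all 7 fits with 1 library left out (adjusted p = 0.0515 to 0.16), in which its log2 fold change stayed between -0.77 and -0.62.

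Genes of mature B cells were mostly lower by value. Of 36 tested, 3 fell, 0 rose and 33 did not pass, 30 had a log2 fold change under 0, and the median was -0.55. At an unadjusted p of 0.05, 20 were lower and 3 higher, against 5.01% and 6.45% of all tested genes. Beside Siglecg the genes that fell were Ccr7, the homing receptor for lymph nodes, which T and dendritic cells carry too, and Ltb, which encodes lymphotoxin beta. Ccr7 was at 4.02 ± 1.00 CPM in KO marrow, against 10.5 ± 1.63 CPM in WT marrow (log2 fold change -1.39 with an SE of 0.20, adjusted p = 0.032, edgeR). Ltb was at 29.4 ± 2.08 CPM in KO marrow, against 45.8 ± 4.12 CPM in WT marrow (-0.64 ± 0.09, SE; adjusted p = 0.031). With 1 library left out, Ccr7 passed in 2 of 7 fits, those without KO library 1 or WT library 1 (adjusted p up to 0.114), and Ltb in 0 (adjusted p = 0.0515 to 0.137). Zfp318, which is needed for IgD, differed by -0.81 on the log2 scale (adjusted p = 0.056).

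The immunoglobulin genes of that list went opposite ways by value. Ighd, the IgD constant region of mature naive B cells, differed by -1.35 on the log2 scale (30.9 ± 13.2 CPM in KO marrow, against 78.7 ± 17.5 CPM in WT marrow; adjusted p = 0.106). Ighm, the IgM constant region, which plasma cells express at high level, differed by 0.74 (adjusted p = 0.425), and Fcrl5, a receptor of marginal zone B and plasma cells, by 1.79 (adjusted p = 0.132). These 3 were chosen after their values were seen.

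Early B lineage genes had a median log2 fold change of -0.48, and 0 of 21 passed, with 10 lower and 3 higher at an unadjusted p of 0.05. Il7r, the interleukin-7 receptor chain that B precursors need, was at 9.08 ± 1.43 CPM in KO marrow, against 20.3 ± 6.07 CPM in WT marrow (adjusted p = 0.083). Pax5, which holds B cell identity, and Lef1, which T cells express too, had log2 fold changes of -1.21 and -1.46 (adjusted p = 0.068 and 0.091), and the stromal and B precursor antigen Bst1 one of 0.65 (adjusted p = 0.113). DESeq2 called 1 gene of this list higher and 6 lower, and voom with sample weights 1 higher and 3 lower. T cell markers also had a median under 0 (-0.37). Any part of T cells in the values of the mature and early B lists, such as those of Ltb and Il7r, was not tested.

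Around the BAFF receptor, CD21 and CD37, the partners gave no such pattern. Of 12 genes of the BAFF system 0 passed, 1 was past an unadjusted p of 0.05, DESeq2 and voom called 0 each, and the median was -0.05. The largest fold difference was that of the plasma cell receptor Tnfrsf17, at 1.89 ± 0.65 CPM in KO marrow, against 0.825 ± 0.32 CPM in WT marrow (log2 fold change 1.19; adjusted p = 0.24). The NF-kB adaptors Traf2, Birc2 and Birc3 had log2 fold changes of -0.14, -0.17 and -0.15. Of 14 partners of CD21 and CD37, Ifitm3 rose and 13 did not pass, with a median of 0.08. Ifitm3, an interferon-induced membrane protein, was at 234 ± 36.0 CPM in KO marrow, against 138 ± 8.47 CPM in WT marrow (log2 fold change 0.76 with an SE of 0.11, adjusted p = 0.029, edgeR), and it passed in 2 of 7 fits with a library left out, those without KO library 1 or KO library 3 (adjusted p up to 0.108). Its relative Ifitm1 differed by 0.65 on the log2 scale (adjusted p = 0.058) and the complement gene C4b by 0.57 (adjusted p = 0.218).

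Plasma cell genes leaned the other way. Of 14 tested 0 passed, with 7 higher and 1 lower at an unadjusted p of 0.05, and the median was 0.35. DESeq2 called 2 higher and 1 lower, and voom called 0 higher and 1 lower. Xbp1, which drives antibody secretion, Prdm1, which sets the plasma cell state, and the antibody joining chain Jchain had log2 fold changes of 0.49, 0.59 and 0.57 (adjusted p = 0.181 to 0.227), with no overlap between groups. Slamf7 differed by -0.98 (adjusted p = 0.137), also with no overlap, and lies 1.698 Mb from Aim2. Every KO library lay above every WT library for 6 of the 14 genes, against 6.95% of all tested genes. The reverse held for 1, against 5.94%.

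**Figure D4:**
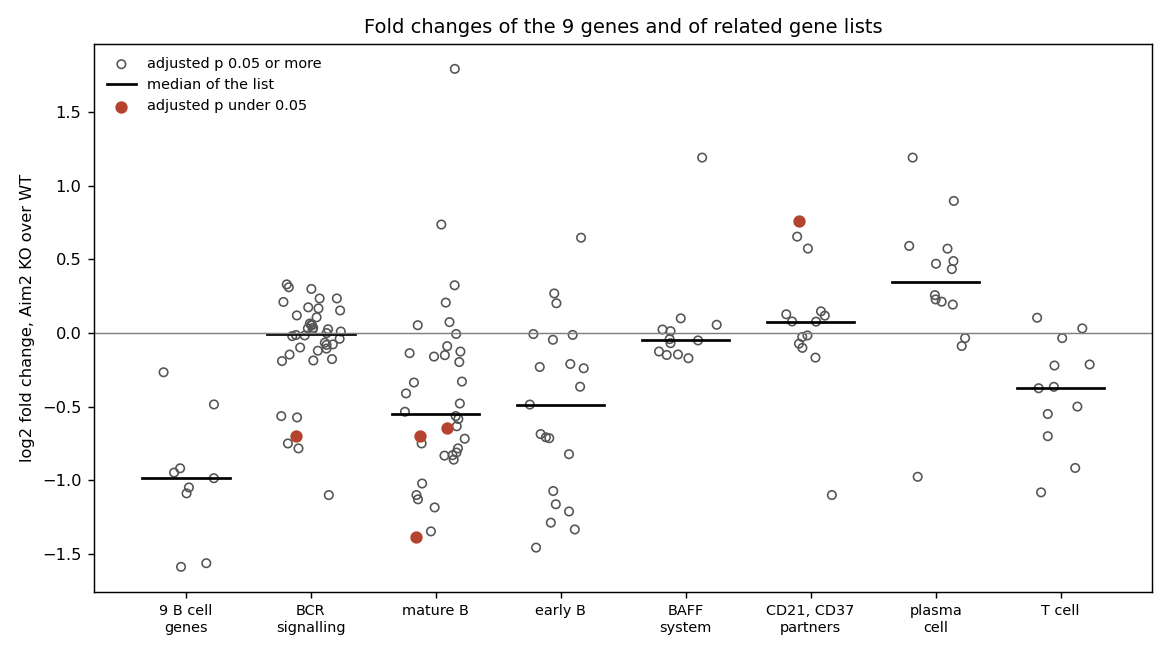
Log2 fold change of KO over WT (vertical axis) for each tested gene of the 9 B cell genes and 7 related lists, with the list median as a bar and filled points for adjusted p under 0.05. The medians are -0.98 for the 9 genes, -0.01 for receptor signalling, -0.55 for mature B, -0.48 for early B and 0.35 for plasma cell genes.

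The genes whose values ran closest to the median profile of the 9 genes were looked for among the 9378 other tested genes averaging 10 CPM or more. The measure was the root mean square distance over the 7 libraries on the log2 scale, and the nearest reported here were H2-DMb2, Chst3, Snn, Spib, Fcrla, Sbk1 and Ablim1, at distances of 0.155 to 0.194. The transcription factor Spib and the Fc receptor-like Fcrla stood on the mature B list. H2-DMb2 encodes a chain of the class II peptide exchanger H2-M, and was at 15.4 ± 4.02 CPM in KO marrow, against 28.8 ± 7.22 CPM in WT marrow. Chst3, a sulfotransferase of chondroitin, was at 12.6 ± 4.25 CPM in KO marrow, against 27.2 ± 8.31 CPM in WT marrow. These genes had adjusted p-values of 0.081 to 0.189. They were picked for likeness to a profile that is lower in KO, so their own difference follows from that choice. For comparison, Cd79a lay 0.026 from the median profile that it helps to form, and Cd37 and Fcer2a lay 0.510 and 0.468 from it.

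**Figure D5:**
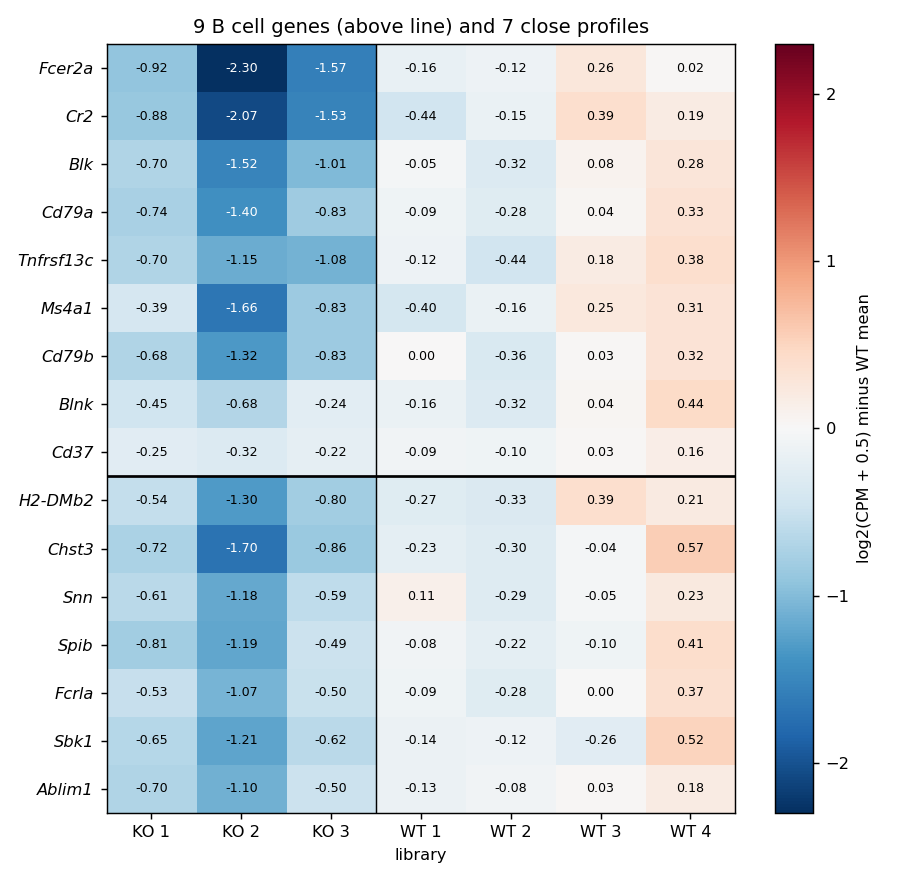
Log2(CPM + 0.5) minus the WT mean (colour and printed value) in 3 KO and 4 WT libraries, for the 9 B cell genes above the line and 7 near genes below it. Every gene is below 0 in all KO libraries, and KO library 2 holds the lowest value of each row. For the 7 near genes this follows from how they were picked.

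Markers of other cell types, only some of which can express any of the 9 genes, were measured beside these genes. T cell markers had a median log2 fold change of -0.37, with 6 of 12 lower at an unadjusted p of 0.05 and 0 passing, and their summed level was 75.3 to 105 CPM in KO and 104.5 to 131 CPM in WT. Monocyte and macrophage markers, whose cells use Blnk and Cd37, had a median of 0.13, with 0 of 12 passing, 3 higher and 0 lower at an unadjusted p of 0.05, and 1705 to 1936 CPM in KO against 1128 to 1863 CPM in WT. The lowest p among them was that of Fcgr1, an IgG receptor, at 22.5 ± 4.45 CPM in KO marrow, against 11.0 ± 2.23 CPM in WT marrow, with no overlap (log2 fold change 1.03, adjusted p = 0.066). Plasmacytoid dendritic cell markers had a median of 0.07, with 0 of 8 passing, 1 higher at an unadjusted p of 0.05, and 169 to 267 CPM in KO and 189 to 226 CPM in WT. Neutrophil markers had a median of 0.27, erythroid markers one of -0.28 and natural killer markers one of 0.17. Of these 3 lists 0 genes passed, with 2 higher among the neutrophil markers, 1 lower among the erythroid and 1 each way among the natural killer markers at an unadjusted p of 0.05.

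Follicular dendritic cells also carry Cr2 and Fcer2a, and of their 5 listed markers found here 4 had enough reads to be tested and 0 passed, at an adjusted or an unadjusted p of 0.05. Their summed level was 169 to 236 CPM in KO and 177 to 215 CPM in WT, most of it from Clu, which other cells express too. Stromal markers had a median of 0.10, with 0 of 7 passing and 1, the collagen gene Col1a1, lower at an unadjusted p of 0.05. Col1a1 was at 1106 ± 71.1 CPM in KO marrow, against 1868 ± 521 CPM in WT marrow, with no overlap (log2 fold change -0.76, adjusted p = 0.218). Skeletal muscle markers, of which 0 of 8 passed at an adjusted or an unadjusted p of 0.05, ranged from 54.9 to 5582 CPM in KO and from 998 to 1998 CPM in WT, while the 9 genes together had 266 to 356 CPM in KO and 438 to 616 CPM in WT. No marker of any of these lists was at 0 in all libraries, and the part of these cells in the values of the 9 genes was not tested.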

How the data were processed

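RNA of 7 bone marrow libraries was extracted on a column kit and sequenced as strand-specific mRNA libraries, per the labels' protocols. The authors deposited, for each transcript, Salmon's expected counts (estimated reads) and TPM, and the submitters' processing notes name FastQC 0.11.9, Salmon 1.7.0, DESeq2 and GRCm38.p6; options and the annotation release are not given in the sources used here. Transcripts were joined without version to GENCODE M21 (569 of 116546 without a gene, at most 0.0662% of reads), summed per gene and rounded.

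In edgeR 4.0.16 (R 4.3.3), genes passing filterByExpr (14238) were scaled by TMM and tested by the quasi-likelihood test, 3 KO against 4 WT, with Benjamini-Hochberg adjustment over all of them. Adjusted p-values in the text are edgeR's unless another tool is named. Alternatives used DESeq2 1.42.0 and limma 3.58.1. Ratios to Cd79a were compared by exact permutation. The scripts were tested on simulated data.

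The 9 genes and the lists were chosen with earlier results of these data known. The naming rule takes the 4 genes with the smallest p from each list; lists of other cell types are given by counts and summed levels, with Fcgr1, Col1a1 and Clu named from the rule's genes there, and other genes are said to be chosen after their values were seen. From 20300468 to 21099972 reads per library, low genes such as Cr2 carry the largest counting error. No pair of replicates agreed within sampling noise. Same-numbered libraries did not deviate together (r = 0.12, -0.04 and -0.27). For the other lists and the nearest profiles, 1 gene that the rule selects is not reported here.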

Additional observations from a re-analysis of the deposited data

Results flagged for a closer look

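In groups of 4 libraries, 49 sets of WT values were searched for a library far from the rest, of which chance marks about 1 in 20, and 2 were found. Tnfrsf17, the plasma cell receptor for BAFF and APRIL, was at 1.31 CPM in WT library 3, against 0.643 to 0.678 CPM in the other WT libraries. Ifitm1 was at 12.2 CPM in WT library 2, against 15.4 to 15.8 CPM in the other WT libraries. None of the 9 B cell genes had such a WT library. The KO libraries were not searched in this way.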

How the results depend on the processing

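The log2 fold change of each of the 9 genes stayed under 0 in all alternatives, from -2.06 for Cr2 to -0.05 for Cd37, whereas the number called depended on the tool. Of the 9 genes, DESeq2 called 7 and voom with sample weights 6, against 1.03% and 0.857% of all tested genes passing as lower. A fit with no filter on low counts called 2, against 0.162%, and an adjusted p under 0.1 gave 5, against 0.442%. In the same settings, DESeq2 called 4 receptor signalling, 16 mature B, 7 early B, 4 CD21 and CD37 partner and 3 plasma cell genes, and voom 3, 13, 4, 3 and 1. Higher among these were 1 mature B, 1 early B, 3 partner and 2 plasma cell genes with DESeq2. With voom, 1 early B and 2 partner genes were higher. Over all 14238 tested genes, DESeq2 called 259 higher and 146 lower, and voom 183 higher and 122 lower. Some genes, such as Siglecg, stand on more than 1 list, so the same call can be counted more than once. Without the filter 1 early B and 2 partner genes passed, and at 0.1 there were 3 signalling, 6 mature B, 3 early B and 3 partner genes. With an offset for transcript length 0 signalling genes passed, and with limma on TPM 0 signalling and 0 mature B genes passed at either pseudocount, and 0 partner genes passed on TPM without a filter. On the TPM scale the median of all genes moved by 0.139. With 1 library left out, 0 to 1 of the 9 genes passed, 0 to 1 signalling, 0 to 2 mature B and 0 to 1 partner genes. The sample number as a replicate block, which pairs nothing by the labels, left 0 signalling, 0 mature B and 0 partner genes and 21 genes in all, against 92. The log2 ratio of Tnfrsf13c to Cd79a turned to 0.038 on the TPM scale and ranged from -0.15 to 0.11 with 1 library left out (0.02 without WT library 3), and that of Ms4a1 ranged from -0.16 to 0.17 (-0.09 without WT library 1). Without immunoglobulin genes, an alternative chosen after seeing the data, 0 of the 9 passed, against 0.185% of all genes passing as lower. The cause of these differences was not tested. Depth limits Cr2 most, with 37 reads in KO library 2.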
